A study of Homo sapiens with 12 samples.

Results

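The VEGF family ligands described here are the 4 genes VEGFA, VEGFB, VEGFC and PGF, chosen by name out of 60708 gene identifiers quantified in each library. No measured value entered that choice as a threshold, but the list was drawn up with earlier results of these data known, so the tests below describe the 4 genes and are not independent evidence. Messenger RNA was sequenced from hTERT RPE-1, a telomerase-immortalised line of human retinal pigment epithelial cells. LmnB1_16 and LmnB1_6 are clonal lines that overexpress the red fluorescent protein mCherry fused to lamin B1, which forms filaments under the nuclear envelope. Their controls, mCherry_4 and mCherry_3, are clonal lines that overexpress mCherry alone. Each line is 1 clone with 3 libraries from biological replicates, and all 12 cultures, controls included, received doxycycline at 0.05 ug/mL for 24 hours and grew in medium with hygromycin B. A construct is therefore represented by 2 clones of 3 libraries each, and the p-values measure only the spread between these libraries.

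VEGF ligands are secreted growth factors that signal through receptor tyrosine kinases on endothelial cells. VEGF-A drives growth and leakiness of blood vessels, VEGF-C drives growth of lymphatic vessels, and VEGF-B and placental growth factor (PGF) bind the receptor FLT1. The pigment epithelium of the eye secretes VEGF-A toward the capillaries behind the retina, and excess VEGF-A is a drug target in diseases with leaking retinal vessels. Low oxygen raises VEGFA transcription through hypoxia-inducible factors (HIF), which bind a short DNA core, the hypoxia response element.

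VEGFA (ENSG00000112715.25) lies on chromosome 6 from 43770184 to 43786487 on the plus strand, in GRCh38 coordinates of GENCODE release 29. VEGFB (ENSG00000173511.10) lies on chromosome 11 from 64234538 to 64238793 on the plus strand. VEGFC (ENSG00000150630.4) lies on chromosome 4 from 176683538 to 176792727 on the minus strand. PGF (ENSG00000119630.14) lies on chromosome 14 from 74941834 to 74955784 on the minus strand. All are protein-coding genes, with 26 coding transcripts annotated for VEGFA, 3 for VEGFB, 1 for VEGFC and 4 for PGF. An annotated antisense gene overlaps VEGFA and another overlaps VEGFC, and both had 0 counts in every library.

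The sequences upstream of VEGFC and VEGFB are shown because VEGFC differed between the LmnB1 clones as VEGFA did, while VEGFB did not pass the test there. Each is the 250 bases upstream of the gene's start in RefSeq on GRCh38.p14, read 5′ to 3′ along the gene's strand. VEGFC spans chr4:176792923-176793172 (minus strand) and VEGFB spans chr11:64234334-64234583 (plus strand). The start differs between RefSeq and GENCODE for both genes. The end of the VEGFB stretch thus lies inside the GENCODE gene, and the VEGFC stretch stops short of the GENCODE start at 176792727. Capitals mark the hypoxia response core (ACGTG or GCGTG) and the GC box bound by SP1 and SP3 (GGGCGG), each on either strand.
VEGFC: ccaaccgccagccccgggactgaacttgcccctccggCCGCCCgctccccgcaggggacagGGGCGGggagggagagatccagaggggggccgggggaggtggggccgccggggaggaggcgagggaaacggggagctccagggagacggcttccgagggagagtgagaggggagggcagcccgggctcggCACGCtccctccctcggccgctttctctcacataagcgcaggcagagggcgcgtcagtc
VEGFB: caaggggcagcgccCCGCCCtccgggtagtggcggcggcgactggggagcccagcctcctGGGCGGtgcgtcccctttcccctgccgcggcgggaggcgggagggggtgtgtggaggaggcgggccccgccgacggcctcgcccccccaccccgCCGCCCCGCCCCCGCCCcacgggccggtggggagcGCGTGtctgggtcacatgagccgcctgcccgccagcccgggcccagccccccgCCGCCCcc
The VEGFC stretch held 1 hypoxia response core and 2 GC boxes, and the VEGFB stretch held 1 hypoxia response core and 6 GC boxes, with no base shared between the motif types. Neither held the AP-1 motif TGANTCA. Of 35116 RefSeq promoter stretches of the same length, 43.2% held the hypoxia response core, 42.6% the GC box and 6.57% the AP-1 motif, so the core and the GC box were common among promoters. GC content was 74.0% in the VEGFC stretch and 82.8% in the VEGFB stretch, against a median of 58.0% over all stretches. The PGF start sites with an entry held 0 and 1 hypoxia response cores and 2 and 3 GC boxes, and in all 3 of the 4 ligands matched an entry. A match is only a match of letters and does not show that a factor bound there.

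The libraries held between 20.6 and 29.5 M estimated counts each. Levels are given as CPM (read counts scaled to the size of the library) and the mean ± SD is over the 3 libraries of 1 clone. The construct could be read from LMNB1, the lamin B1 gene, at 3374 ± 273 CPM in LmnB1_16 and 3976 ± 164 CPM in LmnB1_6, against 161 ± 7.29 CPM in mCherry_4 and 84.98 ± 7.12 CPM in mCherry_3 (log2 4.90, adjusted p = 1.25e-07). A gene was called where its edgeR quasi-likelihood p, adjusted over all 15388 tested genes, was under 0.05. Of 13 pigment epithelium markers 9 were tested, while RPE65, TYR and TTR had under 1 count per library on average. The keratins KRT8 and KRT18 were the most abundant markers. MITF and OTX2, transcription factors of the pigment epithelium chosen here after their values were seen, were at 31.3 and 15.5 CPM in LmnB1_16, and LmnB1_6 had 5 MITF counts and 0 OTX2 counts over its 3 libraries. Both were present in the controls, at 49.0 and 11.1 CPM in mCherry_4 and 58.6 and 12.6 CPM in mCherry_3.

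VEGFA showed the widest spread of the 3 abundant ligands, and it separated the LmnB1 clones from each other more than the LmnB1 clones from the controls. VEGFA stood at 207, 153 and 163 CPM in the libraries of LmnB1_16 and at 22.9, 22.0 and 27.6 CPM in those of LmnB1_6. The control libraries had 121, 91.2 and 113 CPM in mCherry_4 and 55.4, 59.8 and 60.8 CPM in mCherry_3. The LmnB1 clones thus lay at opposite ends, with both controls between them, and no library of a clone overlapped those of another clone. The means were 174 ± 28.6 CPM in LmnB1_16 and 24.2 ± 3.03 CPM in LmnB1_6, against 108 ± 15.2 CPM in mCherry_4 and 58.7 ± 2.88 CPM in mCherry_3 (SD, n = 3 each). All neighbours in the order LmnB1_16, mCherry_4, mCherry_3, LmnB1_6 differed beyond their spread.

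Between the LmnB1 clones, VEGFA was 7.17-fold higher in LmnB1_16 than in LmnB1_6 (log2 2.84, SE 0.13, adjusted p = 2.29e-11). It was 1.61-fold higher in LmnB1_16 than in mCherry_4 (adjusted p = 0.000431) and 2.97-fold higher than in mCherry_3 (adjusted p = 2.35e-08). LmnB1_6 went the other way, 4.45-fold lower than mCherry_4 (adjusted p = 6.14e-10) and 2.42-fold lower than mCherry_3 (adjusted p = 2.72e-07). The controls also differed, with 1.84-fold more VEGFA in mCherry_4 than in mCherry_3 (adjusted p = 1.81e-05). On the length-corrected scale of log2(TPM + 0.1) that difference was 0.51 rather than 0.88 and missed the threshold (adjusted p = 0.0501), and with log2(TPM + 1) it was 0.50 (adjusted p = 0.0475). These contrasts share clones and are not independent of each other.

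With the libraries pooled by construct, VEGFA averaged 99.1 ± 84.1 CPM in LmnB1 libraries and 83.4 ± 28.8 CPM in mCherry libraries (SD, n = 6 each). The log2 fold change was 0.25 with an SE of 0.56 and did not pass the test (adjusted p = 0.783). Its sign and its call depended on which clones entered. Without LmnB1_16 the value was -1.78 (adjusted p = 0.000933), and without LmnB1_6 it was 1.07 (adjusted p = 0.0278). It was 0.76 without mCherry_4, -0.12 without mCherry_3 and -0.10 without replicate 1 of LmnB1_16, none of them called.

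**Figure D1:**
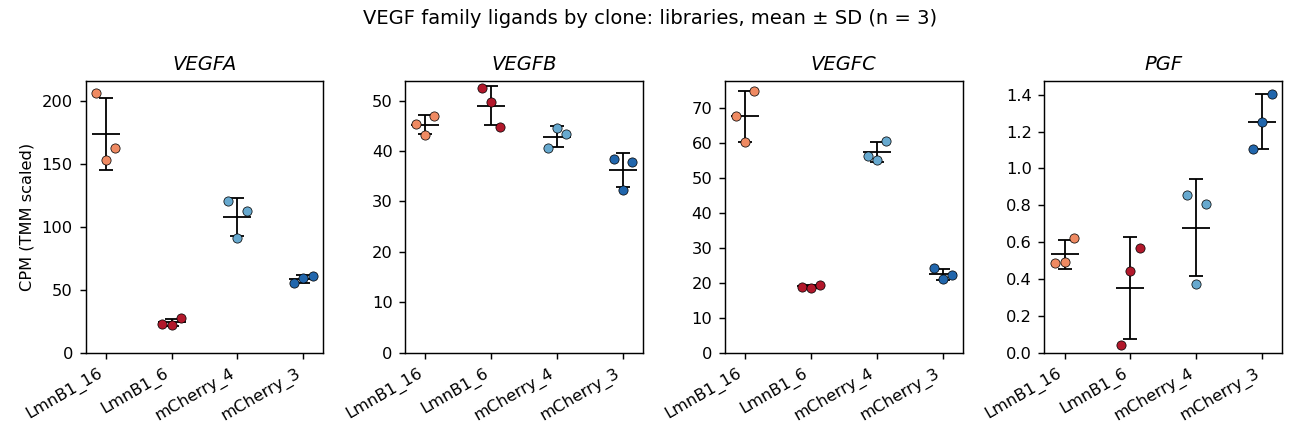
CPM of VEGFA, VEGFB, VEGFC and PGF in each of the 12 libraries by clone, each panel with its own axis from 0; points are libraries and lines the mean ± SD of 3. VEGFA and VEGFC are highest in LmnB1_16 (174 and 67.7 CPM) and lowest in LmnB1_6 (24.2 and 19.0 CPM), VEGFB lies between 32.3 and 52.5 CPM in all libraries, and PGF is highest in mCherry_3.

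VEGFC followed the same order of clones as VEGFA, with LmnB1_16 and mCherry_4 high and mCherry_3 and LmnB1_6 low. Its libraries had 67.7, 60.3 and 74.96 CPM in LmnB1_16 and 18.9, 18.7 and 19.5 CPM in LmnB1_6. The control libraries had 56.2, 55.3 and 60.7 CPM in mCherry_4 and 24.2, 21.1 and 22.35 CPM in mCherry_3. LmnB1_16 overlapped with mCherry_4 and with no other clone, and the lowest library of mCherry_3 was above the highest of LmnB1_6.

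VEGFC was 3.56-fold higher in LmnB1_16 than in LmnB1_6 (log2 1.83, SE 0.08, adjusted p = 3.91e-11). It was 3.01-fold higher in LmnB1_16 than in mCherry_3 (adjusted p = 5.07e-10) and 3.02-fold lower in LmnB1_6 than in mCherry_4 (adjusted p = 2.19e-10). Between the controls, mCherry_4 had 2.55-fold more VEGFC than mCherry_3 (adjusted p = 4.83e-09). The neighbours within each level lay closer together. LmnB1_16 was at log2 0.24 over mCherry_4, just outside the threshold (adjusted p = 0.0505), and it passed without replicate 2 of LmnB1_16 (0.31, adjusted p = 0.00913) or replicate 1 of mCherry_3 (adjusted p = 0.0411), with DESeq2 (adjusted p = 0.0355) or its size factors in edgeR (adjusted p = 0.0455), and with no filter or a 1 CPM filter (adjusted p = 0.0329 and 0.0417). LmnB1_6 was at log2 -0.24 against mCherry_3 (adjusted p = 0.0263), a call lost without replicate 1 or 2 of LmnB1_6 (adjusted p = 0.0646 and 0.0738) or replicate 1 or 3 of mCherry_3 (adjusted p = 0.106 and 0.0516).

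Pooled by construct, VEGFC averaged 43.3 ± 27.0 CPM in LmnB1 libraries and 39.98 ± 19.2 CPM in mCherry libraries (SD, n = 6 each). The log2 fold change was 0.12 (SE 0.44, adjusted p = 0.875) and did not pass the test. It was -1.07 without LmnB1_16 and 0.77 without LmnB1_6, 0.94 without mCherry_4 and -0.40 without mCherry_3, and between -0.11 and 0.28 with any 1 library left out, none of them called.

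VEGFB was the evenly expressed ligand, and the only one of the 4 called between the constructs, where 17.8% of all tested genes were called. Its libraries had 45.3, 43.2 and 47.0 CPM in LmnB1_16 and 52.5, 49.7 and 44.8 CPM in LmnB1_6. The control libraries had 40.6, 44.6 and 43.4 CPM in mCherry_4 and 38.3, 32.3 and 37.9 CPM in mCherry_3. All LmnB1 libraries lay above mCherry_3, while those of LmnB1_16 overlapped with mCherry_4. The ordered means were 49.0 ± 3.86 CPM in LmnB1_6, 45.2 ± 1.90 CPM in LmnB1_16, 42.9 ± 2.08 CPM in mCherry_4 and 36.2 ± 3.35 CPM in mCherry_3 (SD, n = 3 each). Only the last neighbours in that order, mCherry_4 and mCherry_3, differed past the threshold (log2 0.25, adjusted p = 0.0238), a call lost without replicate 2 of mCherry_3 (adjusted p = 0.132), replicate 2 of mCherry_4 (adjusted p = 0.0877) or replicate 3 of mCherry_4 (adjusted p = 0.0634).

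Between the constructs VEGFB was 1.19-fold higher in LmnB1 libraries than in mCherry libraries, at 47.1 ± 3.42 CPM against 39.5 ± 4.43 CPM (SD, n = 6 each; log2 0.25, SE 0.08, adjusted p = 0.0454). Against mCherry_3, VEGFB was 1.35-fold higher in LmnB1_6 (adjusted p = 0.000218) and 1.25-fold higher in LmnB1_16 (adjusted p = 0.00360). Against mCherry_4 the log2 values were 0.19 for LmnB1_6 (adjusted p = 0.0707, called at 0.25 with adjusted p = 0.0269 without replicate 3 of LmnB1_6) and 0.08 for LmnB1_16 (adjusted p = 0.592). The construct call sat close to the threshold. It was lost without any replicate of LmnB1_6 or of mCherry_3, without replicate 1 or 3 of LmnB1_16, and without replicate 1 of mCherry_4, with adjusted p between 0.0285 and 0.1001 over all 12 such fits. Without mCherry_3 the log2 value was 0.14 (adjusted p = 0.317), and without LmnB1_6 it was 0.20 (adjusted p = 0.213).

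PGF was close to the detection limit. It had 10, 10 and 17 counts in the libraries of LmnB1_16, 1, 9 and 17 in LmnB1_6, 19, 9 and 19 in mCherry_4, and 29, 35 and 38 in mCherry_3. Every mCherry_3 library was above all libraries of the other clones, which overlapped with each other. PGF passed the filter on low counts, near 0.405 CPM, in all libraries of LmnB1_16 and mCherry_3 and in 2 of 3 libraries of LmnB1_6 and of mCherry_4. The means were 0.534 ± 0.0773 CPM in LmnB1_16 and 0.352 ± 0.275 CPM in LmnB1_6, against 0.679 ± 0.264 CPM in mCherry_4 and 1.25 ± 0.151 CPM in mCherry_3 (SD, n = 3 each). No neighbours in the order mCherry_3, mCherry_4, LmnB1_16, LmnB1_6 differed past the threshold, except mCherry_4 against mCherry_3 with limma on log2(TPM + 1) (-0.49, adjusted p = 0.0246). PGF was 3.46-fold lower in LmnB1_6 than in mCherry_3 (log2 -1.79, SE 0.52, adjusted p = 0.00832). LmnB1_16 against mCherry_3 gave log2 -1.22 (adjusted p = 0.0591), which passed without replicate 1 of LmnB1_6 (adjusted p = 0.0166) and in 6 other settings, DESeq2 among them (adjusted p = 0.00723 to 0.0482). Between the constructs the value was -1.12 (SE 0.45, adjusted p = 0.0984), -1.49 without mCherry_4 (adjusted p = 0.0435) and -0.60 without mCherry_3 (not called).

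Counted together, 1 of the 4 ligands was called higher and 0 lower between the constructs, where 17.8% of all tested genes were called, 8.58% higher and 9.25% lower. LmnB1_16 had 3 called against mCherry_3 (all higher, background 44.4%) and 1 against mCherry_4 (VEGFA, higher, background 15.7%). LmnB1_6 had all 4 called against mCherry_3 (VEGFB higher and the others lower, background 52.8%) and 2 against mCherry_4 (VEGFA and VEGFC, lower, background 37.2%). LmnB1_16 against LmnB1_6 had 2 called, both higher, with a background of 34.4%, and mCherry_4 against mCherry_3 had 3 called, all higher, with a background of 37.4%. With 4 genes and backgrounds this high, the counts do not set the family apart from other genes, and both control clones differed from each other, in share of genes called, about as widely as the LmnB1 clones did.

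**Figure D2:**
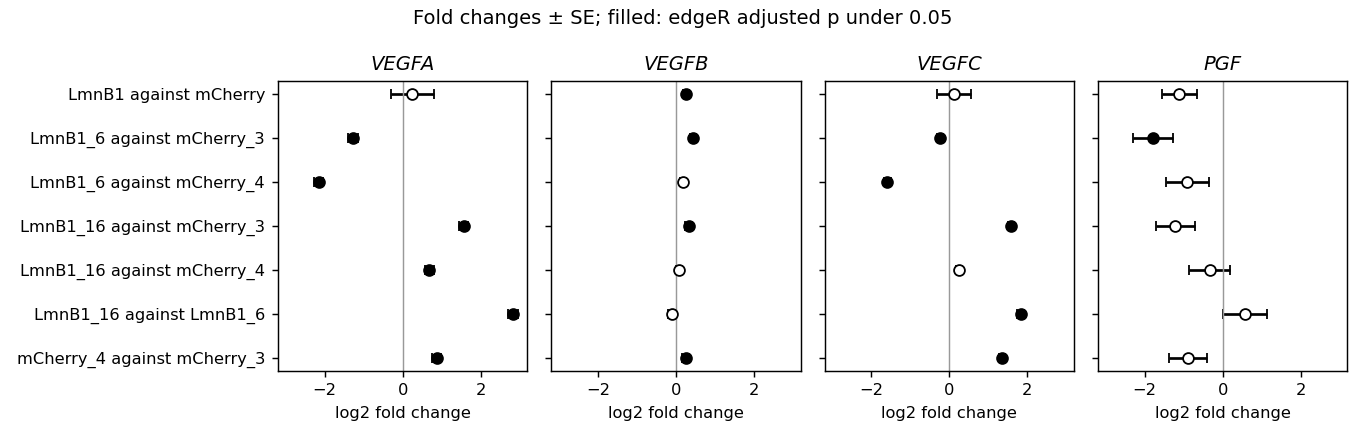
Log2 fold change ± SE of each ligand in 7 contrasts, the first-named group over the second; filled points passed an edgeR adjusted p of 0.05. VEGFA and VEGFC point in opposite directions for LmnB1_16 and LmnB1_6 against the same controls, with the widest value at 2.84 for VEGFA between the LmnB1 clones.

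To compare ligands with each other, levels were taken per transcript length as the deposited TPM, which corrects counts for effective length and depth. The summed TPM of the 4 ligands was 216 ± 14.99 in LmnB1_16 and 90.6 ± 1.99 in LmnB1_6, against 160.1 ± 14.6 in mCherry_4 and 112 ± 1.99 in mCherry_3 (SD, n = 3 each). VEGFA made up 50.2% ± 3.28 of that sum in LmnB1_16 and 19.5% ± 5.40 in LmnB1_6, against 40.9% ± 4.79 in mCherry_4 and 40.7% ± 1.65 in mCherry_3. VEGFB made up 26.4% ± 1.65 in LmnB1_16 and 65.2% ± 6.15 in LmnB1_6, against 33.1% ± 3.996 in mCherry_4 and 42.4% ± 0.484 in mCherry_3. The leading ligand per length was thus VEGFA in LmnB1_16 and VEGFB in LmnB1_6. VEGFC took 14.9% to 25.6% on average in a clone, and PGF 0.247% to 1.17%. VEGFD, the remaining family member, had at most 2 counts in a library and was not tested. In bulk RNA, fewer cells that express a gene and less of its RNA per cell cannot be told apart.

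**Figure D3:**
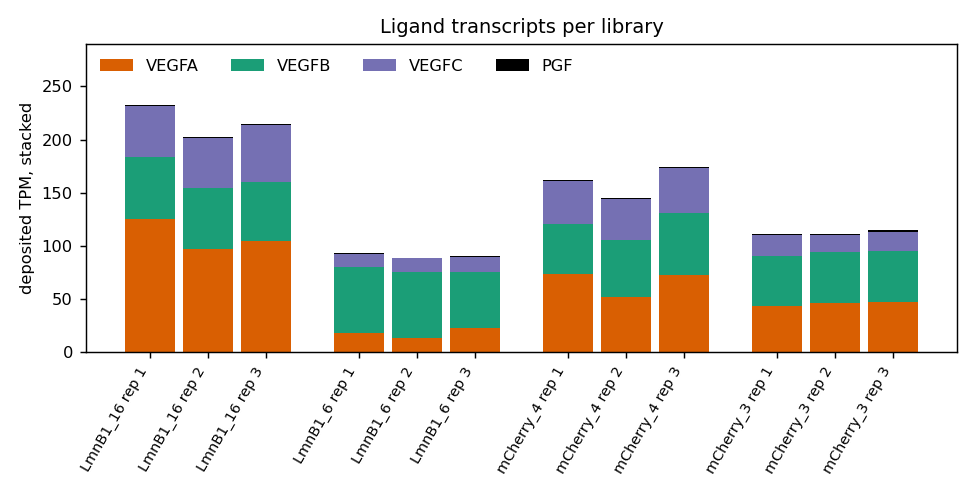
Deposited TPM of the 4 ligands stacked for each library, from 0. The bars average 216 TPM in LmnB1_16, 90.6 in LmnB1_6, 160.1 in mCherry_4 and 112 in mCherry_3, and the VEGFB segment keeps about the same height while VEGFA and VEGFC shrink or grow.

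The deposited files also give an effective length per gene, which moves when reads are assigned to longer or shorter transcripts. For VEGFA it averaged 2344 ± 108 bases in LmnB1_16 and 1987 ± 348 bases in LmnB1_6, against 2333 ± 161 bases in mCherry_4 and 1990 ± 17.8 bases in mCherry_3 (SD, n = 3 each). Between the constructs the difference of mean log2 effective length was -0.004 (two-sided exact permutation p = 0.965, smallest possible 0.00216). That difference does not measure the gap between the VEGFA means of clones of the same construct, which was not tested. The differences for VEGFB, VEGFC and PGF had exact permutation p-values of 0.931, 0.701 and 0.900. LMNB1 was at -1.32 by the same measure (exact permutation p = 0.00216, the smallest possible, adjusted p over all genes 0.595). No gene passed after adjustment, but a gene at the smallest possible p could pass only if many others reached it too.

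Among the receptors, the neuropilins stood high and the kinase receptors were at or near 0 counts. NRP1, the co-receptor that presents VEGF-A, had 508, 595 and 498 CPM in LmnB1_16 and 423, 417 and 408 CPM in LmnB1_6, against 368, 355 and 341 CPM in mCherry_4 and 129, 132 and 137 CPM in mCherry_3. NRP2, the co-receptor that binds VEGF-C, had 64.96, 68.0 and 64.4 CPM in LmnB1_16 and 104.5, 84.1 and 85.6 CPM in LmnB1_6, against 48.4, 48.6 and 47.8 CPM in mCherry_4 and 27.3, 29.8 and 26.8 CPM in mCherry_3. For both, every LmnB1 library was above every mCherry library, and the controls differed from each other. Between the constructs NRP1 was 1.95-fold higher (log2 0.96, SE 0.29, adjusted p = 0.0393) and NRP2 2.06-fold higher (log2 1.05, SE 0.19, adjusted p = 0.00517). The NRP1 call was lost without any replicate of LmnB1_16, LmnB1_6 or mCherry_3, with adjusted p of 0.0556 to 0.0806, and its log2 value was 0.42 without mCherry_3. It was also lost with the replicate block (adjusted p = 0.0743), length offsets (adjusted p = 0.0622) and clone as a random effect (adjusted p = 0.0796). NRP2 kept its call in 25 of 26 alternatives, all but the counts summed per clone. Of the 3 tested receptors 2 were called higher and 0 lower, against 17.8% of all tested genes called.

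KDR, the main signalling receptor for VEGF-A on endothelial cells, had 75 counts over the libraries of LmnB1_16 and 0 over those of LmnB1_6, against 6 in mCherry_4 and 33 in mCherry_3. It was at least 27.0-fold higher in LmnB1_16 than in LmnB1_6, taking 3 counts over the LmnB1_6 libraries as the floor, which covers counting error only. Between the constructs KDR did not pass the test (adjusted p = 0.477). KDR reached the filter on low counts, near 0.405 CPM, in every library of LmnB1_16 and in replicates 1 and 3 of mCherry_3. No library of LmnB1_6 or mCherry_4 reached it. KDR thus entered the tested set through the clone where it was highest, and its difference between the LmnB1 clones is a description only. FLT1 had 10 counts and FLT4, the VEGF-C receptor, 1 count over all 12 libraries, and neither was tested. The endothelial markers PECAM1, CDH5 and VWF were too low to be tested. Of 4 tested endothelial markers 0 were called between the constructs, against 17.8% of all tested genes.

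The platelet-derived growth factors (PDGF) are the closest relatives of the VEGF ligands. Between the constructs 0 of 4 tested PDGF genes were called, against 17.8% of all tested genes. PDGFB was at 2.13 ± 0.415 CPM in LmnB1_16 and 18.2 ± 3.51 CPM in LmnB1_6, against 1.73 ± 0.273 CPM in mCherry_4 and 5.37 ± 0.549 CPM in mCherry_3. It was 8.51-fold lower in LmnB1_16 than in LmnB1_6 (adjusted p = 9.63e-10), the opposite direction to VEGFA and VEGFC. PDGFD had 151 counts in LmnB1_16 and 3 in LmnB1_6, a ratio of 54.3 with an exact 95% interval of 18.2 to 266 that covers counting error only. PDGFC was at 119.7 CPM in LmnB1_16 and 106 CPM in LmnB1_6, against 119.7 CPM in mCherry_4 and 38.6 CPM in mCherry_3, so that only mCherry_3 was low. PDGFA was at 4.27 CPM in LmnB1_16 and 6.23 CPM in LmnB1_6, against 6.66 CPM in mCherry_4 and 4.47 CPM in mCherry_3.

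**Figure D4:**
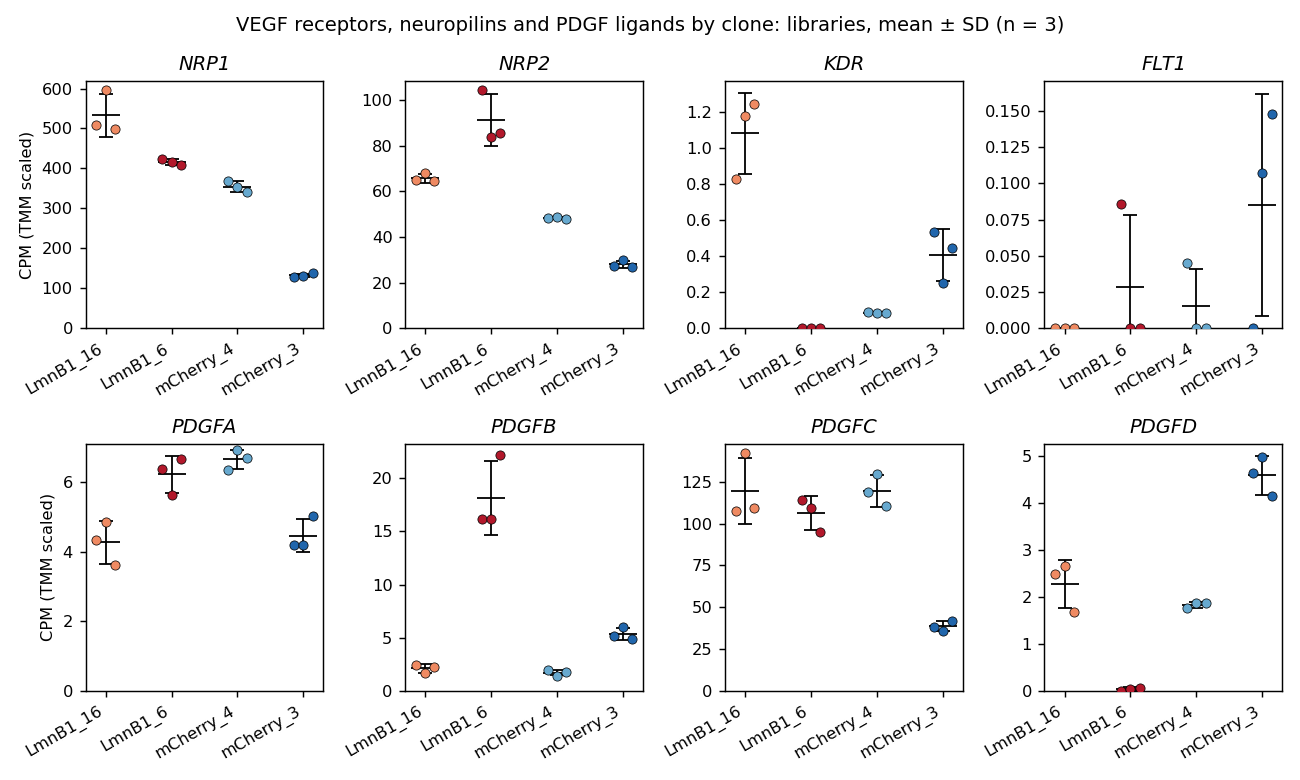
CPM of the VEGF receptors and co-receptors that had counts in several libraries and of the PDGF ligands, by clone, each panel with its own axis; points are libraries and lines the mean ± SD of 3. NRP1 and NRP2 are higher in all 6 LmnB1 libraries than in all 6 mCherry libraries, and PDGFB stands out in LmnB1_6 at 18.2 CPM.

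VEGF-C is secreted as a precursor that proteases cut, and 8 of 9 listed genes of this step were tested. Between the constructs 1 was called higher and 1 lower, where 17.8% of all tested genes were called. PCSK7, a proprotein convertase, was slightly lower (log2 -0.27, SE 0.05, adjusted p = 0.00695), a call lost without mCherry_3 (adjusted p = 0.0594), without LmnB1_6 (adjusted p = 0.0525), and with length offsets (-0.18, adjusted p = 0.254) or either TPM setting (adjusted p = 0.179). ADAMTS14, a protease able to activate VEGF-C, was higher by log2 3.71 (adjusted p = 0.0210), which came from 1 clone. ADAMTS14 stood at 4.45 CPM in LmnB1_16 and 147 CPM in LmnB1_6, against 5.84 CPM in mCherry_4 and 5.78 CPM in mCherry_3, and without LmnB1_6 the log2 value was -0.38. With clone as a random effect neither PCSK7 (adjusted p = 0.285) nor ADAMTS14 (adjusted p = 0.477) passed. Between the LmnB1 clones 6 of the 8 were higher in LmnB1_16 and 1 was lower, with a median log2 fold change of 0.83 against 0.00135 over all tested genes, of which 34.4% were called. PLAT, tissue plasminogen activator, was at 1944 CPM in LmnB1_16 and 149 CPM in LmnB1_6 (log2 3.71, adjusted p = 9.32e-16), and CTSD, the protease cathepsin D, at 746 and 408 CPM (adjusted p = 4.53e-07). ADAMTS3, the main activating protease of VEGF-C, and its cofactor CCBE1 were chosen after their values were seen. ADAMTS3 was at 9.54 CPM in LmnB1_16 and 0.299 CPM in LmnB1_6 (adjusted p = 4.19e-11), and CCBE1 at 188 and 109 CPM (adjusted p = 3.40e-07). In mCherry_4 and mCherry_3, PLAT was at 876 and 873 CPM and CTSD at 699 and 549 CPM. There ADAMTS3 was at 7.77 and 4.68 CPM and CCBE1 at 285 and 180 CPM, so CCBE1 was lower in LmnB1_16 than in mCherry_4 (adjusted p = 2.76e-05).

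Of 7 tested genes of the oxygen-sensing HIF pathway, EPAS1 was called lower and VHL higher between the constructs, with 17.8% of all tested genes called. EPAS1, the HIF-2 alpha subunit, was at 19.6 ± 0.733 CPM in LmnB1_16 and 4.52 ± 0.347 CPM in LmnB1_6, against 33.6 ± 1.23 CPM in mCherry_4 and 54.6 ± 2.41 CPM in mCherry_3. It was 3.67-fold lower in LmnB1 libraries (log2 -1.88, adjusted p = 0.0138), a call lost without mCherry_3 (-1.48, adjusted p = 0.158). Between the LmnB1 clones EPAS1 was 4.30-fold higher in LmnB1_16 than in LmnB1_6 (adjusted p = 1.20e-11), the direction of VEGFA, and between the controls 1.62-fold lower in mCherry_4 than in mCherry_3 (adjusted p = 1.02e-06), the opposite direction. VHL, which marks HIF for destruction, was higher by log2 0.58 (adjusted p = 0.0388), and by 0.24 without mCherry_3 (adjusted p = 0.198). Leaving out any replicate of LmnB1_6 or of mCherry_3 also ended the VHL call, with adjusted p of 0.0741 to 0.0850. So did leaving out LmnB1_6 (adjusted p = 0.224), length offsets (adjusted p = 0.0657) and clone as a random effect (adjusted p = 0.105). HIF1A was at 405 CPM in LmnB1_16 and 419 CPM in LmnB1_6, against 449 CPM in mCherry_4 and 418 CPM in mCherry_3 (adjusted p = 0.356 between the constructs).

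All 18 listed HIF target genes other than the ligands were tested. Between the constructs 1 was called higher, NDRG1, a stress-response gene (log2 0.72, adjusted p = 0.0324), and 0 lower. That value was 0.19 without LmnB1_6, and the call was lost without 8 of the 12 libraries, namely any of LmnB1_6 or mCherry_3 or replicates 1 and 2 of mCherry_4 (adjusted p 0.0507 to 0.0723). The NDRG1 call was also lost with either TPM setting (adjusted p = 0.0945 and 0.0972) and with clone as a random effect (adjusted p = 0.255). Between LmnB1_16 and LmnB1_6, where VEGFA was 7.17-fold higher, 4 targets were higher and 9 lower, with a median log2 fold change of -0.20 and 34.4% of all tested genes called. Between mCherry_4 and mCherry_3, where VEGFA was 1.84-fold higher, 9 targets were higher and 1 lower, with a median of 0.21 and 37.4% of all tested genes called. SLC2A1, the glucose transporter GLUT1, was at 513 CPM in LmnB1_16 and 199 CPM in LmnB1_6, against 586 CPM in mCherry_4 and 513 CPM in mCherry_3. LDHA, lactate dehydrogenase A, was at 1304 CPM in LmnB1_16 and 1464 CPM in LmnB1_6, against 1540.4 CPM in mCherry_4 and 854 CPM in mCherry_3. The lowest clone for SLC2A1 was LmnB1_6, as for VEGFA, and the lowest for LDHA was mCherry_3. The part of HIF in the VEGFA levels was not tested.

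Of 11 tested genes for other regulators of VEGF transcripts, 3 were called higher and 1 lower between the constructs, against 17.8% called of all tested genes. SP3 (log2 0.33, adjusted p = 0.0116) and SP1 (log2 0.23, adjusted p = 0.0238), which bind GC boxes such as those capitalised above, were slightly higher. HNRNPL, an RNA-binding protein that acts on VEGFA messenger RNA, was also higher (log2 0.39, adjusted p = 0.0237). ZFP36, which promotes decay of AU-rich messenger RNAs, was lower at 9.11 CPM in LmnB1_16 and 7.64 CPM in LmnB1_6, against 14.6 CPM in mCherry_4 and 13.9 CPM in mCherry_3 (log2 -0.77, adjusted p = 0.00308). SP3 lost its call without mCherry_3 (adjusted p = 0.146) or LmnB1_6 (adjusted p = 0.0975). SP1 lost its call without mCherry_3 (adjusted p = 0.192), LmnB1_6 (adjusted p = 0.0810) or replicate 3 of mCherry_3 (adjusted p = 0.0581), and with either TPM setting (adjusted p = 0.0921 and 0.0954). The HNRNPL call was lost without replicate 1 or 2 of LmnB1_6 (adjusted p = 0.0521 and 0.0532) or replicate 2 or 3 of mCherry_3 (adjusted p = 0.0544 and 0.0570), and without either of these clones (adjusted p = 0.123 and 0.0800). With clone as a random effect none of the 4 passed, with adjusted p of 0.132 for HNRNPL, 0.197 for SP3, 0.197 for ZFP36 and 0.360 for SP1.

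Among 10 tested inhibitors of vessel growth, 2 were called higher and 0 lower between the constructs, close to the 17.8% called over all tested genes. SEMA3A, a semaphorin that competes with VEGF-A for NRP1, was at 106 ± 11.2 CPM in LmnB1_16 and 101 ± 4.75 CPM in LmnB1_6, against 55.2 ± 3.39 CPM in mCherry_4 and 39.99 ± 2.42 CPM in mCherry_3 (log2 1.12, SE 0.11, adjusted p = 0.000107). Both LmnB1 clones were thus at one level, unlike for VEGFA. SERPINF1, which encodes the pigment epithelium-derived factor, was low throughout, at 0.595 CPM in LmnB1_16 and 1.43 CPM in LmnB1_6, against 0.200 CPM in mCherry_4 and 0.526 CPM in mCherry_3. Its value was log2 1.46 (adjusted p = 0.0348) with all libraries, 0.69 without LmnB1_6 and 0.94 without mCherry_4, and 8 of the 12 leave-one-library fits ended the call (adjusted p 0.0540 to 0.0762 in those fits: any replicate of LmnB1_6 or mCherry_4, and replicates 1 and 3 of mCherry_3). The SERPINF1 call was also lost with length offsets (adjusted p = 0.201), either TPM setting (adjusted p = 0.255 and 0.246) and clone as a random effect (adjusted p = 0.272). THBS1, thrombospondin 1, kept the clone order of VEGFA, at 1898 CPM in LmnB1_16 and 270.2 CPM in LmnB1_6, against 1361 CPM in mCherry_4 and 689 CPM in mCherry_3.

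Of 7 tested other angiogenic factors, 1 was called higher and 2 lower between the constructs, where the share called of all tested genes was 17.8%. FGF1, a fibroblast growth factor, was at 35.9 CPM in LmnB1_16 and 25.9 CPM in LmnB1_6, against 69.6 CPM in mCherry_4 and 56.1 CPM in mCherry_3 (log2 -1.03, SE 0.13, adjusted p = 0.000665). FGF2, also a fibroblast growth factor, was at 131 CPM in LmnB1_16 and 87.8 CPM in LmnB1_6, against 163 CPM in mCherry_4 and 160.0 CPM in mCherry_3 (log2 -0.56, adjusted p = 0.0203). Without replicate 1 of mCherry_3 FGF2 was at -0.51 (adjusted p = 0.0503), and without LmnB1_6 at -0.29 (adjusted p = 0.123). The FGF2 call was also lost without mCherry_3 (-0.57, adjusted p = 0.108) and without mCherry_4 (-0.55, adjusted p = 0.0525). With clone as a random effect FGF2 did not pass either (adjusted p = 0.176). EDN1, the vasoconstrictor endothelin 1, was higher by log2 1.90 (adjusted p = 0.0166), with 8.21 CPM in LmnB1_16 and 32.8 CPM in LmnB1_6, against 7.15 CPM in mCherry_4 and 3.87 CPM in mCherry_3. Its value was 0.58 without LmnB1_6 (adjusted p = 0.225) and 1.52 without mCherry_3 (adjusted p = 0.191). The EDN1 call was also lost with clone as a random effect (adjusted p = 0.165).

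**Figure D5:**
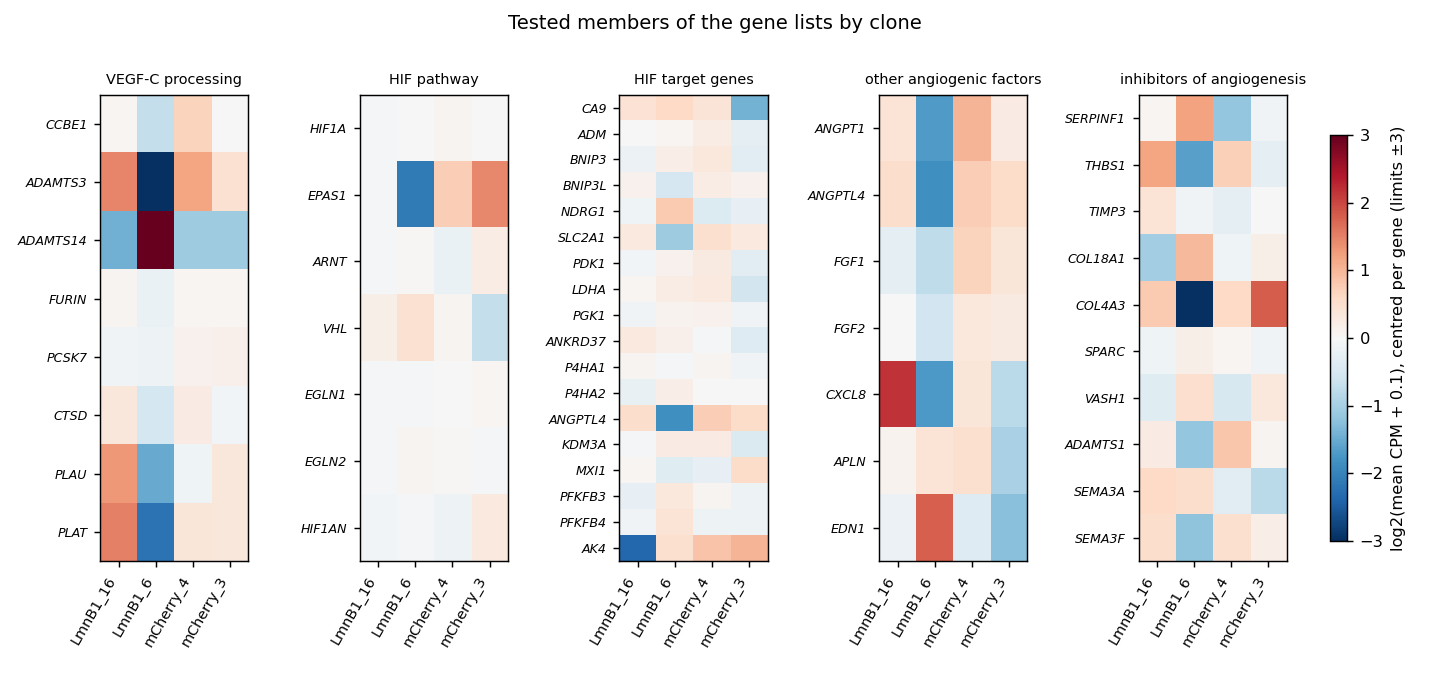
Level of each tested gene of 5 lists by clone, as log2 of mean CPM plus 0.1 with the gene's mean over clones set to 0; the colour scale stops at 3 either way. LmnB1_6 holds most of the strong colours, as for ADAMTS14 (147 CPM) and ADAMTS3 (0.299 CPM), and the HIF targets share no single pattern.

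The genes whose log2 levels tracked each ligand most closely were taken from 11789 protein-coding genes of at least 1 CPM, by Pearson r over the 12 libraries. These libraries come from 4 clones, so r mostly reflects clone means, and no p is given. VEGFA was followed by CSF1 (r = 0.988), PSMB9 (0.982) and HYOU1 (0.980). CSF1, a macrophage growth factor, was at 71.0 CPM in LmnB1_16 and 17.2 CPM in LmnB1_6, against 56.5 CPM in mCherry_4 and 31.9 CPM in mCherry_3. VEGFC was followed by PLCB3 (0.988), PTPRB (0.987) and JAG1 (0.985), and JAG1, a Notch ligand, was at 52.6 CPM in LmnB1_16 and 13.8 CPM in LmnB1_6, against 38.6 CPM in mCherry_4 and 15.04 CPM in mCherry_3. After subtracting clone means the r of HYOU1 with VEGFA was -0.788 and that of PTPRB with VEGFC was -0.905, so for these genes the likeness lay between clones only. The others stayed positive, at 0.482 for CSF1 and 0.704 for PSMB9 with VEGFA, and 0.801 for PLCB3 and 0.609 for JAG1 with VEGFC. VEGFB was followed by CDC42EP1 (0.9504), LSM2 (0.9498) and DNAAF5 (0.943). PGF was followed by SLC22A5 (0.928), a gene with no symbol (ENSG00000270149.5, 0.922) and CAAP1 (0.907). Between the ligands, r of VEGFA with VEGFC was 0.923 over the 12 libraries and 0.191 within clones.

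The pigment epithelium markers also differed by clone. Their summed level over 13 markers ran from 599 to 889 CPM in LmnB1 libraries and from 924 to 1389 CPM in mCherry libraries, with 1 of 9 tested markers called higher and 4 lower, where 8.58% of all tested genes were called higher and 9.25% lower. The keratins KRT8 and KRT18 were the most abundant members of that sum, which therefore says little about the scarcer markers. In LmnB1_6, where VEGFA and VEGFC were lowest, the summed level averaged 627 CPM, MITF and OTX2 were at or near 0, and the fibroblast collagen gene COL1A1 was at 186 CPM, against 15.1 to 20.5 CPM in the other clones. The fibroblast markers as a list summed to 322 to 394 CPM in LmnB1 libraries and 310.4 to 353 CPM in mCherry libraries, with LUM under 1 count per library. Against mCherry_4, 1 of the 5 tested fibroblast markers was called higher in LmnB1_6 and 3 lower, with a median log2 fold change of -1.18. In that contrast 37.2% of all tested genes were called. Leukocyte markers summed to 43.3 to 80.9 CPM in LmnB1 libraries and 66.7 to 88.8 CPM in mCherry libraries, of which 0 of 2 tested were called, with CD3E under 1 count per library. Endothelial markers summed to 5.64 to 11.4 CPM in LmnB1 libraries and 5.78 to 19.6 CPM in mCherry libraries. The part of these marker differences in the ligand levels was not tested.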

How the data were processed

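The authors deposited, per the file headers, gene-level Salmon tables with estimated counts, TPM and gene lengths for each of the 12 libraries. The submitters' processing notes name STAR, Salmon, DESeq2 and GRCh38, without versions, and neither an annotation release nor a strand setting is given in these sources. The deposited estimated counts are not normalized and were rounded to whole numbers. The deposited TPM are scaled by effective length by the authors and were used to compare ligands with each other and as an alternative. Genes kept by filterByExpr (minimum count 10, minimum total 15, grouped by clone) were scaled with TMM factors and tested with edgeR 4.0.16 in R 4.3.3, by construct (6 against 6 libraries) and, in another model, with the 4 clones as groups. The biological coefficient of variation was 0.262 with constructs as groups and 0.0842 with clones as groups. Adjusted p-values of the main fits are Benjamini-Hochberg over all 15388 genes tested, and the SE is the log2 fold change over the root of the F statistic. Fits with another filter or with libraries or clones left out were adjusted over their own tested genes, from 13739 (1 CPM filter) to 27464 (no filter). The tests were also run on simulated counts with the spread found within clones and no differences between clones of a construct. That run does not show how the construct test behaves when clones of a construct differ. The libraries of 1 clone do not sample a construct independently. No libraries matched within sampling noise (chi-square per degree of freedom at least 3.78 within a clone).

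The members and gene lists were chosen with earlier results of these data known. Named genes are all ligands, receptors and PDGF genes, and from each other list up to 4 members called between the constructs and the 2 most abundant, with the 3 genes most like each ligand; genes outside this rule are named as such. Alternatives were DESeq2 1.42.0, limma 3.58.1 on log2(TPM + 0.1) and log2(TPM + 1), other filters and scaling, effective lengths as offsets, a replicate block, counts summed per clone, clone as a random effect, and leaving out each library and each clone.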

Additional observations from a re-analysis of the deposited data

Results flagged for a closer look

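PGF in replicate 1 of LmnB1_6 stood far below the other 5 LmnB1 libraries, at 0.0428 CPM from 1 count, and its deposited effective length was also far below theirs, at 533 bases. Of 16 such sets of libraries looked at, chance alone flags about 1 in 20.

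The effects of the LmnB1 clones against the same controls differed for 8 ligand, receptor and PDGF genes, by the contrast of LmnB1_16 with LmnB1_6. Tested were 4 ligands, 3 receptors and 4 PDGF genes, and 34.4% of all tested genes were called in this contrast. The log2 difference was 2.84 for VEGFA, 1.83 for VEGFC and 0.36 for NRP1, all higher in LmnB1_16. It was -0.47 for NRP2, -0.55 for PDGFA and -3.09 for PDGFB, all lower in LmnB1_16. KDR was at least 27.0-fold higher in LmnB1_16, with 0 counts in LmnB1_6, and the count ratio was 54.3 for PDGFD. KDR passed the filter on low counts through LmnB1_16, where it was highest, so its place among the 8 is a description only. The PDGFA difference lost its call without replicate 3 of LmnB1_16 (-0.44, adjusted p = 0.0532). It also lost it with length offsets (adjusted p = 0.0623) and with limma on log2(TPM + 0.1) and log2(TPM + 1) (adjusted p = 0.110 and 0.106).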

How the results depend on the processing

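Of 1652 repeats of 76 results under other settings, 1440 stayed the same, 160 lost a call and 18 gained one. Another 16 changed sign and 18 counts of called genes moved by over 1.5 times. A gene stayed the same if it kept its direction and side of the threshold, and a count if it stayed within 1.5 times. Between the constructs 2743 genes were called, against 0 with counts summed per clone (642 at an unadjusted p under 0.05), 163 with clone as a random effect, 1684 and 1673 with limma on log2(TPM + 0.1) and log2(TPM + 1), 1648 with the replicate block, 4808 without LmnB1_16, 1263 without LmnB1_6, 647 without mCherry_3, 4958 without mCherry_4, and 1392 to 3078 with 1 library left out. LmnB1_16 against mCherry_4 had 2411 genes called, against 1528 with length offsets and 1426 and 1418 with TPM. Settings with TPM are on the scale of log2(value + pseudocount).

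VEGFA between the constructs was -0.33 and -0.32 with TPM and -0.30 with clone as a random effect, -1.78 without LmnB1_16, -0.12 without mCherry_3 and 1.07 without LmnB1_6, and -0.10 to 0.46 with 1 library left out. VEGFC was -0.047 and -0.039 with TPM, -1.07 without LmnB1_16, 0.77 without LmnB1_6, 0.94 without mCherry_4, -0.40 without mCherry_3 and -0.11 to 0.28 with 1 library left out. PGF was -1.49 and called without mCherry_4. VEGFB lost its call at 0.26 with no filter, 0.25 with the replicate block (adjusted p = 0.0803), 0.25 with length offsets, 0.21 with either TPM setting, 0.25 with counts summed per clone, 0.26 with clone as a random effect, 0.14 without mCherry_3 and 0.20 without LmnB1_6, and had 0.20 to 0.29 with 1 library left out. ADAMTS14 was -0.38 without LmnB1_6. The cause of these changes was not tested. With counts summed per clone, 2 against 2 values remain and LMNB1 itself was at adjusted p = 0.778.

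Replicate numbers did not pair the libraries across all clones: 5 of 18 same-numbered pairs had correlated deviations over 0.1 (range -0.0875 to 0.253). Of the 12 libraries, 0 correlated best with their own number in every other clone, although some did in part of them. Replicate 3 of LmnB1_6 had r of 0.182 with that of LmnB1_16 and 0.207 with that of mCherry_4. Between replicate 3 of LmnB1_16 and of mCherry_4, r was 0.253. The highest r between differently numbered libraries was 0.165. Replicate 3 of mCherry_3 did not share this, with r of -0.07, -0.00923 and 0.0133 to LmnB1_6, LmnB1_16 and mCherry_4. The cause of the likeness among these replicate 3 libraries was not tested. With the replicate block VEGFC passed in LmnB1_16 against mCherry_4 (adjusted p = 0.0296). The block also ended the construct calls of NRP1 (adjusted p = 0.0743), VHL (0.0714), NDRG1 (0.0609), SERPINF1 (0.0605) and SP1 (0.0514). PGF rests on 1 to 38 counts per library, and no difference among its low clones passed the test. Whether deeper sequencing would show one was not tested.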
